A study of Homo sapiens with 6 samples.

Results

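Transcripts of 10 genes that govern passage through the G1 phase of the cell cycle were followed in FaDu cells, an established human line derived from a squamous carcinoma of the hypopharynx. The genes were picked as a named list, with no threshold on their values but with earlier results of these data known: the cyclins CCND2, CCND3, CCNE1, CCNE2 and CCNA1, the kinases CDK4 and CDK6, the inhibitor CDKN1B, the retinoblastoma gene RB1 and the transcription factor E2F1. All 10 were found among the 58825 gene identifiers of the count table, each under a single Ensembl identifier, and all 10 passed the filter on low counts. The shNSUN2 group consisted of 3 libraries from FaDu cells carrying a short hairpin RNA against NSUN2, an RNA cytosine methyltransferase. The FaDu group consisted of 3 libraries from the same line with no hairpin, so loss of NSUN2 and the presence of any hairpin cannot be told apart. No source used here says whether the hairpin cells are 1 clone or whether replicates are separate cultures, so p-values measure only the spread between these libraries, which may be technical.

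In G1, D-type cyclins pair with CDK4 or CDK6 and E-type cyclins with CDK2, and these kinases phosphorylate the RB protein. Unphosphorylated RB binds E2F factors and holds down the genes they drive, among them genes of DNA replication. The CIP/KIP inhibitors, such as p27 (the product of CDKN1B), bind cyclin-CDK complexes and restrain CDK2. CCNA1 encodes an A-type cyclin known mainly from male germ cells and some tumours, whereas CCNA2 encodes the A-type cyclin of most dividing cells. In squamous carcinomas this axis is known for amplification of CCND1 and loss of CDKN2A.

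Totals per library were 53612358 to 72788971 estimated counts. NSUN2, the targeted gene (chromosome 5, from 6599239 to 6633291 in GENCODE 29 on GRCh38), had 50.4, 34.7 and 39.6 CPM (counts scaled to a common sequencing depth) in shNSUN2 and 169, 173 and 156 CPM in FaDu, and edgeR called it lower (log2 fold change -1.997, SE 0.16, adjusted p = 0.000526). Of 10 markers of squamous epithelium, all were detected in every library, and their summed level was 2445 to 2914 CPM in shNSUN2 against 4636 to 4674 CPM in FaDu. In edgeR 8 of them were called lower and 1, EPCAM, higher (means of 192 CPM in shNSUN2 and 129 CPM in FaDu). CDH1 was not called (318 CPM in shNSUN2, 303 CPM in FaDu). Of 12 male germ cell markers, 8 were at 0 in every library, including DDX4, DAZL and PRM1, and their sum was 0 to 0.067 CPM in shNSUN2 and 0.098 to 0.275 CPM in FaDu. Of 11 leukocyte markers, 4 were at 0 in every library, PTPRC included, and the sum was 10.5 to 12.2 CPM in shNSUN2 and 9.03 to 11.8 CPM in FaDu, nearly all of it CD14. Sums for plasma cells (7 markers, mostly SDC1, which epithelia also make) were 179 to 221 CPM in shNSUN2 and 140 to 169 CPM in FaDu. For prostate (8 markers) they were 53.8 to 70.4 CPM in shNSUN2 and 31.2 to 33.8 CPM in FaDu, and for smooth muscle, fibroblasts and endothelium (11 markers) 13.9 to 28.6 CPM in shNSUN2 and 20.4 to 25.3 CPM in FaDu. These sums hide changes of single genes. In edgeR, 3 of 4 tested plasma cell markers were called higher and 0 lower. Of 8 tested prostate markers, 4 were called higher and 1 lower. Among 8 tested markers of the last group, COL1A2 and DES were called higher and ACTA2 lower. Over all tested genes 8.54% were called higher and 9.97% lower. The part of these markers in the results was not tested. The third shNSUN2 library (replicate 3) differed from the other two: its log2 difference from the other libraries of the group had a Spearman correlation of 0.472 with the GC content of genes (19033 genes, which are not independent replicates).

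Between shNSUN2 and FaDu, 4 of the 10 genes passed the test. CCNA1 and CCND2 were lower, and CDKN1B and E2F1 were higher. Calls are from edgeR's two-sided quasi-likelihood test over 19081 genes, with Benjamini-Hochberg adjusted p-values taken as passing under 0.05. Of all tested genes 18.5% were called, 8.54% higher and 9.97% lower. The groups did not overlap for 5 of the 10 genes (the 4 called and CCNE2), against 42.3% of all tested genes. The median log2 fold change was 0.21 over the 10 genes and -0.01 over all tested genes. The 4 calls held under every one of the 13 other settings tried, those that left out a library included, and none of the other 6 genes was called under any of them.

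**Figure D1:**
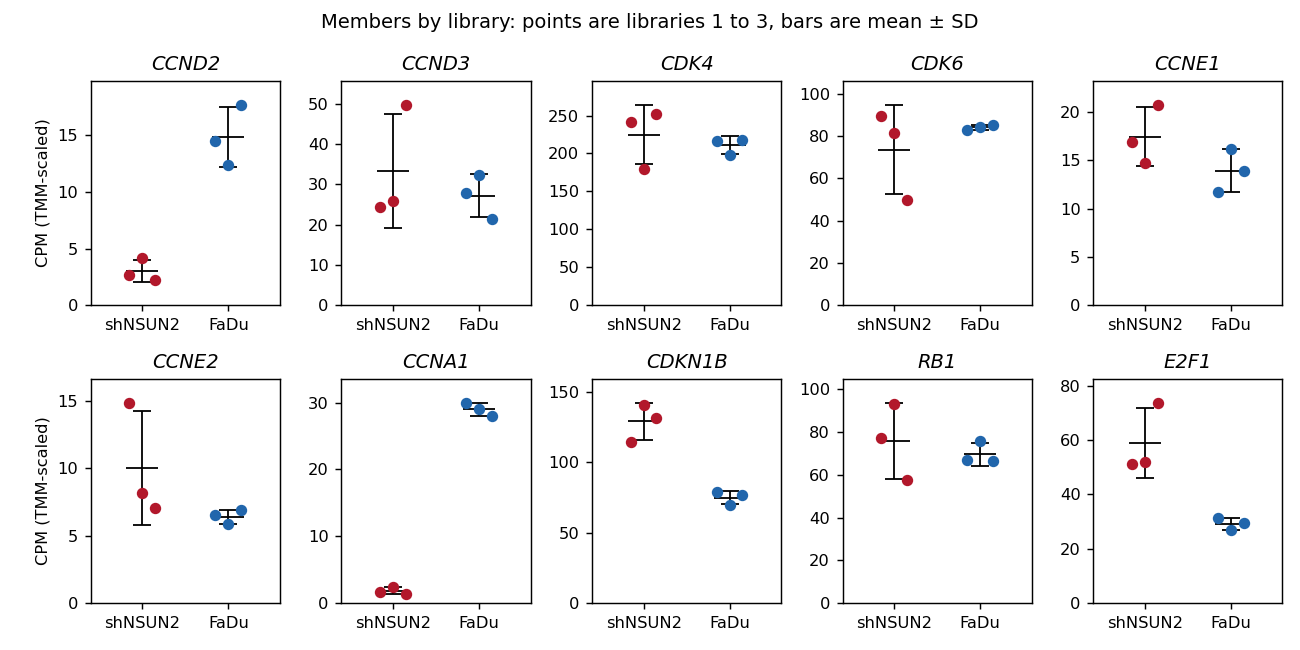
CPM of the 10 genes (vertical axes, linear from 0, TMM-scaled) in each library of shNSUN2 (red, left) and FaDu (blue, right), with points for libraries 1 to 3 and bars for mean ± SD. CCNA1 and CCND2 lie lower and CDKN1B and E2F1 higher in all 3 shNSUN2 libraries.

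CCNA1 (ENSG00000133101, chromosome 13, from 36431520 to 36442882 on the plus strand) changed most of the 10. It had 1.66, 2.44 and 1.38 CPM in the shNSUN2 libraries and 29.97, 29.01 and 27.98 CPM in the FaDu libraries. Every shNSUN2 library was far below every FaDu library, and the FaDu libraries lay close together. Its mean was 1.82 ± 0.552 CPM in shNSUN2 and 28.98 ± 0.998 CPM in FaDu (SD, n = 3 each), a shNSUN2 level of 6.30% of the FaDu level (log2 fold change -3.99, SE 0.24, edgeR adjusted p = 0.000256). By log2 fold change it ranked 70 from the lowest of 19081 tested genes. The shNSUN2 values stand on 112, 145 and 93 estimated counts. In bulk RNA, fewer cells that express a gene and less RNA per cell cannot be told apart.

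CCNA2, the A-type cyclin of S phase and mitosis, was higher instead. It had 145, 123 and 127 CPM in shNSUN2 and 92.0, 94.3 and 84.6 CPM in FaDu (log2 fold change 0.55, SE 0.12, edgeR adjusted p = 0.0180). That call was lost without shNSUN2 replicate 1 (adjusted p = 0.0538) and without FaDu replicate 1, 2 or 3 (0.0729, 0.0698 and 0.0931), at log2 fold changes of 0.48 to 0.58. Scaled per kilobase of exon, CCNA1 made up 1.604% ± 0.563 of A-type cyclin transcripts in shNSUN2 and 27.3% ± 0.756 in FaDu (SD, n = 3 each). The log2 ratio of CCNA1 to CCNA2 CPM was -6.21 ± 0.481 in shNSUN2 and -1.64 ± 0.0552 in FaDu, a difference of -4.58 (exact two-sided permutation test p = 0.1, adjusted p = 0.2 over 4 such ratios). Permutation of 3 against 3 libraries cannot give a p under 0.1.

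The profiles nearest to that of CCNA1 were those of THBD, SERPINB13 and NID1. They are the 3 of 11219 tested genes with at least 5 CPM whose log2(CPM + 1), centred over the 6 libraries, differed least from it, with root-mean-square differences of 0.246, 0.247 and 0.247. THBD encodes thrombomodulin, a cell-surface thrombin receptor, and had 4.83, 4.596 and 4.01 CPM in shNSUN2 and 43.8, 41.3 and 49.8 CPM in FaDu. SERPINB13 and NID1, a serpin of squamous epithelium and a basement membrane protein, had means of 4.98 and 4.40 CPM in shNSUN2 and of 82.1 and 51.0 CPM in FaDu.

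Of the D-type cyclins, CCND2 fell. CCND2 (ENSG00000118971, chromosome 12, from 4273772 to 4305350, plus strand) had 2.65, 4.16 and 2.25 CPM in shNSUN2 and 14.5, 12.4 and 17.7 CPM in FaDu. The groups were well apart, although the libraries within each varied more than those of CCNA1. The mean was 3.02 ± 1.01 CPM in shNSUN2 and 14.9 ± 2.67 CPM in FaDu, a shNSUN2 level of 20.3% of the FaDu level (log2 fold change -2.30, SE 0.27, edgeR adjusted p = 0.00184). AC008012.1, a gene on the same strand that shares 989 bases of its exons had 0 counts in every library, and the antisense CCND2-AS1 had 0 counts in shNSUN2 and 4 to 11 counts in FaDu.

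CCND3, a D-type cyclin prominent in lymphoid cells, did not pass the test. CCND3 (chromosome 6, from 41934933 to 42050357, minus strand) had 24.5, 25.8 and 49.7 CPM in shNSUN2 and 27.9, 32.3 and 21.5 CPM in FaDu. Replicate 3 of shNSUN2 alone was above the FaDu range. The log2 fold change was 0.29 (95% interval -0.38 to 0.97, edgeR adjusted p = 0.531) and was -0.11 without that library, so no direction can be given.

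CCND1, the D-type cyclin amplified in many squamous carcinomas, outweighed its relatives and was higher in shNSUN2. It had 1993, 1447 and 2227 CPM in shNSUN2 and 676, 659 and 713 CPM in FaDu (log2 fold change 1.47, SE 0.16, edgeR adjusted p = 0.00165). Scaled per kilobase of exon, CCND1 was 98.5% ± 0.404 of D-type cyclin transcripts in shNSUN2 and 95.4% ± 0.536 in FaDu. CCND2 was 0.115% ± 0.0661 of them in shNSUN2 and 1.40% ± 0.202 in FaDu, and CCND3 was 1.43% ± 0.406 in shNSUN2 and 3.19% ± 0.738 in FaDu. The log2 ratio of CCND2 to CCND3 CPM was -3.44 ± 0.936 in shNSUN2 and -0.87 ± 0.556 in FaDu (exact two-sided permutation test p = 0.1, adjusted p = 0.2).

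The kinases that D-type cyclins activate showed no change that passed the test. CDK4 (chromosome 12, from 57747727 to 57756013, minus strand) had 242, 180 and 252 CPM in shNSUN2 and 217, 198 and 218 CPM in FaDu. Its shNSUN2 libraries lay on both sides of the FaDu range (log2 fold change 0.09, 95% interval -0.25 to 0.43, edgeR adjusted p = 0.710). CDK4 shares 1369 of its 3168 exonic bases with TSPAN31 on the opposite strand, and without strand information reads there cannot be assigned. TSPAN31 had 21.9 ± 3.13 CPM in shNSUN2 and 22.8 ± 6.99 CPM in FaDu.

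CDK6 (chromosome 7, from 92604921 to 92836594, minus strand) had 89.4, 81.6 and 49.6 CPM in shNSUN2 and 82.8, 84.1 and 85.4 CPM in FaDu. Replicate 3 of shNSUN2 was the low value, and the FaDu libraries were nearly equal. The log2 fold change was -0.19 (95% interval -0.67 to 0.29, edgeR adjusted p = 0.564) and 0.03 without replicate 3. Scaled per kilobase, CDK4 was 92.0% ± 2.89 of the CDK4 and CDK6 transcripts in shNSUN2 and 90.6% ± 0.482 in FaDu, and the log2 ratio of CDK6 to CDK4 CPM was -1.64 ± 0.628 in shNSUN2 and -1.33 ± 0.0812 in FaDu (exact permutation test p = 0.7, adjusted p = 0.7).

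The E-type cyclins, partners of CDK2 at the end of G1, were not called. CCNE1 (chromosome 19, from 29811898 to 29824308, plus strand) had 16.9, 14.7 and 20.7 CPM in shNSUN2 and 11.7, 16.2 and 13.9 CPM in FaDu, with overlapping groups (log2 fold change 0.33, 95% interval -0.11 to 0.76, edgeR adjusted p = 0.266). CCNE2 (chromosome 8, from 94879770 to 94896678, minus strand) had 14.9, 8.20 and 7.05 CPM in shNSUN2 and 6.52, 5.83 and 6.88 CPM in FaDu. All 3 shNSUN2 libraries were above the FaDu libraries, replicate 3 by little and replicate 1 by much, and the test was not passed (log2 fold change 0.65, 95% interval -0.003 to 1.297, edgeR adjusted p = 0.150). Without shNSUN2 replicate 1 the log2 fold change of CCNE2 was 0.25. INTS8, on the opposite strand, covers 1629 of the 4397 exonic bases of CCNE2 and had 95.5, 78.0 and 73.6 CPM in shNSUN2 and 62.0, 61.1 and 65.7 CPM in FaDu. Its order of the shNSUN2 libraries is that of CCNE2, and its part in the CCNE2 counts was not tested. The log2 ratio of CCNE2 to CCNE1 CPM was -0.86 ± 0.687 in shNSUN2 and -1.11 ± 0.325 in FaDu (exact permutation test p = 0.6, adjusted p = 0.7).

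CDK2 itself, which both E-type and A-type cyclins activate, had 93.4, 88.8 and 104 CPM in shNSUN2 and 68.1, 52.5 and 61.2 CPM in FaDu (log2 fold change 0.66, SE 0.14, edgeR adjusted p = 0.0167). This call was lost without FaDu replicate 2 or 3 (adjusted p = 0.0791 and 0.0742).

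The inhibitor CDKN1B was higher in shNSUN2. CDKN1B (ENSG00000111276, chromosome 12, from 12715058 to 12722371, plus strand) had 115, 141 and 131 CPM in shNSUN2 and 78.6, 69.5 and 76.8 CPM in FaDu. The lowest shNSUN2 library was well above the highest FaDu library. The mean was 129 ± 13.3 CPM in shNSUN2 and 74.96 ± 4.83 CPM in FaDu, a 1.72-fold level (log2 fold change 0.78, SE 0.13, edgeR adjusted p = 0.00619). Leaving out single libraries gave log2 fold changes of 0.72 to 0.87. p27 is controlled largely through its breakdown, which RNA counts do not show.

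The other CIP/KIP genes fell. CDKN1A, the gene of the p53-induced inhibitor p21, had 43.3, 43.6 and 61.1 CPM in shNSUN2 and 87.2, 85.6 and 80.4 CPM in FaDu (log2 fold change -0.77, SE 0.16, edgeR adjusted p = 0.0156). That call was lost without shNSUN2 replicate 1 (adjusted p = 0.0574) and without FaDu replicate 1, 2 or 3 (0.0615, 0.0644 and 0.0564). CDKN1C, the gene of p57, averaged 0.752 ± 0.292 CPM in shNSUN2 and 2.53 ± 0.44 CPM in FaDu (log2 fold change -1.75, SE 0.34, edgeR adjusted p = 0.0132). Scaled per kilobase, CDKN1B was 73.6% ± 3.76 of CIP/KIP transcripts in shNSUN2 and 48.2% ± 1.93 in FaDu, while CDKN1A was 25.9% ± 3.95 in shNSUN2 and 49.99% ± 2.13 in FaDu. The CDKN1C call was lost without FaDu replicate 3 (adjusted p = 0.0593). The INK4 genes CDKN2A, CDKN2B, CDKN2C and CDKN2D, inhibitors of CDK4 and CDK6, were not called by edgeR (log2 fold changes of 0.12, 0.14, 0.19 and -1.15).

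**Figure D2:**
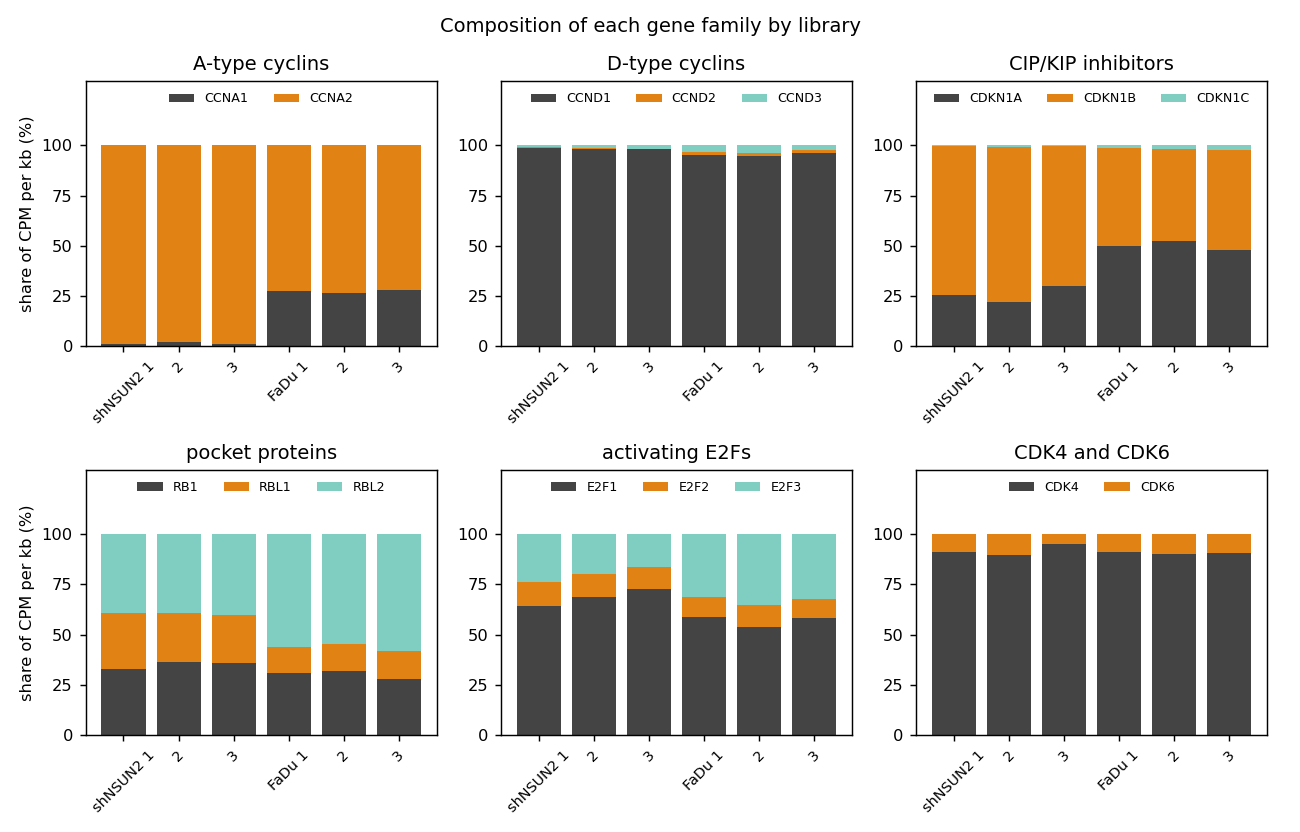
Share of each gene in the CPM per kilobase of exon of its family (vertical axis, %) in each library, shNSUN2 libraries left of FaDu libraries. CCNA1 takes 1.604% of the A-type cyclins in shNSUN2 and 27.3% in FaDu, and CDKN1B takes 73.6% of the CIP/KIP inhibitors in shNSUN2 and 48.2% in FaDu.

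RB1 did not pass the test. RB1 (chromosome 13, from 48303726 to 48599436, plus strand) had 77.2, 93.1 and 57.5 CPM in shNSUN2 and 66.8, 75.9 and 66.3 CPM in FaDu. The shNSUN2 libraries spread on both sides of the FaDu libraries (log2 fold change 0.12, 95% interval -0.29 to 0.54, edgeR adjusted p = 0.677). Its value was -0.05 without shNSUN2 replicate 2 and 0.29 without replicate 3, so no direction can be given. The related pocket protein genes changed in opposite directions. RBL1, the gene of p107, had 59.4, 58.0 and 35.4 CPM in shNSUN2 and 25.5, 29.3 and 29.8 CPM in FaDu (edgeR adjusted p = 0.0263). RBL2, the gene of p130, had 104, 114 and 73.7 CPM in shNSUN2 and 137, 146 and 156 CPM in FaDu (edgeR adjusted p = 0.0495). The call of RBL1 was lost without any library but shNSUN2 replicate 3 (adjusted p = 0.0652 to 0.0971), and that of RBL2 without shNSUN2 replicate 1 or any FaDu library (0.0937 to 0.161) and with RLE scaling (0.0524). Scaled per kilobase, RB1 was 35.0% ± 1.72 of pocket protein transcripts in shNSUN2 and 30.4% ± 2.08 in FaDu, RBL1 was 25.3% ± 1.99 in shNSUN2 and 13.3% ± 0.435 in FaDu, and RBL2 was 39.7% ± 0.616 in shNSUN2 and 56.3% ± 1.90 in FaDu.

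E2F1, an activating E2F and itself a target of E2F factors, was higher in shNSUN2. E2F1 (ENSG00000101412, chromosome 20, from 33675683 to 33686404, minus strand) had 51.4, 51.9 and 73.8 CPM in shNSUN2 and 31.2, 26.8 and 29.4 CPM in FaDu. The groups did not overlap, and replicate 3 was the highest of the shNSUN2 libraries. The mean was 59.0 ± 12.8 CPM in shNSUN2 and 29.2 ± 2.20 CPM in FaDu, a 2.02-fold level (log2 fold change 1.02, SE 0.17, edgeR adjusted p = 0.00742). Without shNSUN2 replicate 3 it was 0.83 (adjusted p = 0.00325), and with GC content and length smoothed out of each library 0.92 (adjusted p = 0.00124). E2F2 also rose (21.1, 18.6 and 24.0 CPM in shNSUN2, 11.5, 11.7 and 10.4 CPM in FaDu, edgeR adjusted p = 0.00659), and E2F3 was at a log2 fold change of 0.00 (95% interval -0.29 to 0.30).

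The upstream sequences of 3 of the called genes are shown because the E2F1 gene is a known target of E2F factors, and CCNA1 and CDKN1B are the other called genes with a window. They are the 250 bases before the RefSeq start of each gene on GRCh38.p14, at chr20:33686386-33686635 (minus strand) for E2F1, chr13:36431705-36431954 (plus) for CCNA1 and chr12:12717118-12717367 (plus) for CDKN1B. In GENCODE 29 each of these genes has an annotated start further upstream, so the CCNA1 and CDKN1B windows lie inside the annotated gene and the E2F1 window overlaps the annotated gene at its 5′ end. Capitals mark the letters TTTCCCGC, TTTCGCGC, TTTGCCGC or TTTGGCGC, forms of the E2F consensus, searched on both strands.
E2F1: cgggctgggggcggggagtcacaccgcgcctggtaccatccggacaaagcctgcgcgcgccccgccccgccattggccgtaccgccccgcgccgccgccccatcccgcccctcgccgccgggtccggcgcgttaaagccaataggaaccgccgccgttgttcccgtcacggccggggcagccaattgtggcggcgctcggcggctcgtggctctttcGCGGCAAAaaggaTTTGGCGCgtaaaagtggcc
CCNA1: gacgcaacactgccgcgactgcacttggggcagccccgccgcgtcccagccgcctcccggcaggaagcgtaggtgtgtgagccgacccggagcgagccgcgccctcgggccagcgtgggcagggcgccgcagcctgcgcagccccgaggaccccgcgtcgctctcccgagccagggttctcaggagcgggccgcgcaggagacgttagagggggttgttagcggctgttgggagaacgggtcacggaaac
CDKN1B: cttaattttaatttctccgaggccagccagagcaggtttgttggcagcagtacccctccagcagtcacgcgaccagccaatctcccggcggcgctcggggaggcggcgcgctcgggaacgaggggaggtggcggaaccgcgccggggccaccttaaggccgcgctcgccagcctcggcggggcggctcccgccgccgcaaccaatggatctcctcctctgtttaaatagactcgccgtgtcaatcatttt
E2F1 held 2 matches, TTTGGCGC at 20 to 13 bases before the start and TTTGCCGC on the reverse strand at 33 to 26 bases before it, which do not overlap. CCNA1 and CDKN1B held none of these letters in this window. Of the 10 genes, 8 had a window (CCND2 and CCNE2 were not matched), and E2F1 was the only one of the 8 with a match. The RB1 window lies at a start 172724 bases inside the GENCODE 29 gene, and that of CDK4 at 3703 bases. The 3 CCND3 windows lie at starts 1669, 108549 and 111152 bases inside, and the 2 of CDK6 at 21 and 2635 bases. Of 27305 genes with a window, 3.4% held one of the letters, as did 13 of 30 matched E2F target genes (43.3%). A match describes letters and not a bound site.

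Across the 10 genes, levels per kilobase of exon spanned from CDK4, the highest in both groups, to CCND2, the lowest in shNSUN2, and CCNE2, the lowest in FaDu. In shNSUN2 the order was CDK4 (70.9 ± 12.3 CPM per kilobase, SD, n = 3), CDKN1B (45.9 ± 4.73), E2F1 (23.6 ± 5.12), RB1 (11.8 ± 2.76), CCNE1 (6.84 ± 1.20), CDK6 (5.999 ± 1.72), CCND3 (5.74 ± 2.44), CCNE2 (2.28 ± 0.962), CCNA1 (0.760 ± 0.23) and CCND2 (0.422 ± 0.141). In FaDu it was CDK4 (66.6 ± 3.59), CDKN1B (26.7 ± 1.72), CCNA1 (12.1 ± 0.416), E2F1 (11.6 ± 0.878), RB1 (10.8 ± 0.836), CDK6 (6.86 ± 0.105), CCNE1 (5.46 ± 0.877), CCND3 (4.69 ± 0.939), CCND2 (2.08 ± 0.373) and CCNE2 (1.46 ± 0.121). In shNSUN2, the libraries of CCNE1 and CDK6, of CDK6 and CCND3 and of CCNA1 and CCND2 overlapped. In FaDu, those of CCNA1 and E2F1, of E2F1 and RB1 and of CCNE1 and CCND3 overlapped. The other neighbours in each order did not overlap.

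The libraries of shNSUN2 differed among themselves along GC content in these genes too. Relative to the mean of replicates 1 and 2, replicate 3 was lower for CDK6, CCNE2, RB1 and CCND2 (log2 differences of -0.78, -0.65, -0.56 and -0.56, GC contents of 39.5%, 36.9%, 37.3% and 45.5%). It was higher for CCND3, E2F1, CCNE1 and CDK4 (0.98, 0.52, 0.40 and 0.27, GC contents of 56.2%, 62.5%, 52.9% and 53.6%). CDKN1B was at 0.05 and CCNA1 at -0.55, with GC contents of 47.7% and 50.3%. Over the 10 genes the Spearman correlation was 0.927, a description of 10 genes measured in the same 3 libraries. With GC content and length smoothed out, the log2 fold changes of CCND3, CDK6 and RB1 were 0.25, -0.08 and 0.18, and none was called by edgeR.

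**Figure D3:**
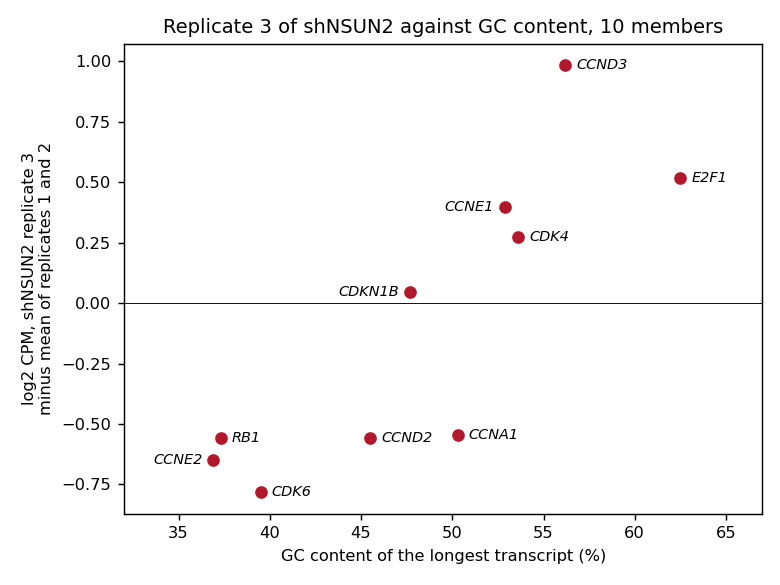
Log2 CPM of replicate 3 of shNSUN2 minus the mean of replicates 1 and 2 (vertical axis) against the GC content of the longest transcript (horizontal axis, %), with 1 point for each of the 10 genes. RB1, CDK6, CCNE2 and CCND2, the genes of lowest GC content, lie at -0.56 to -0.78, and CCND3 and E2F1 at 0.98 and 0.52.

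Beyond the 10, the other genes of the axis changed in both directions. Of 24 further cyclins, CDKs, their activators and inhibitors, pocket proteins, E2F and DP factors, 9 were called higher and 5 lower (median log2 fold change 0.13). Over all tested genes 8.54% were called higher and 9.97% lower. The list was chosen with earlier results of these data known. CDC25A, the phosphatase that activates CDK2, had 44.9, 30.0 and 55.9 CPM in shNSUN2 and 12.5, 15.9 and 14.6 CPM in FaDu (log2 fold change 1.61, SE 0.23, edgeR adjusted p = 0.00398). E2F8, an atypical repressor, and TFDP1, the DP partner of E2F factors, were at log2 fold changes of 0.84 and 0.60 (edgeR adjusted p = 0.00794 and 0.0120). The TFDP1 call was lost without FaDu replicate 1, 2 or 3 (adjusted p = 0.0552, 0.0642 and 0.0608). E2F4, a repressive E2F, was called higher (0.60), and E2F5, its relative, and CDK7, the kinase that activates other CDKs, were called lower (-0.61 and -0.62). Without shNSUN2 replicate 1, or FaDu replicate 2 or 3, these 3 calls were lost (adjusted p = 0.0682 to 0.162), as were those of E2F4 and E2F5 without FaDu replicate 1 (0.123 and 0.104) and that of E2F5 without shNSUN2 replicate 2 (0.0861). With GC content and length smoothed out, E2F5 was not called (0.115), nor was E2F4 with upper quartile scaling (0.0669). The counts of this list were 5, 4 and 4 higher and 2, 1 and 0 lower without FaDu replicate 1, 2 or 3, and 6 higher and 1 lower without shNSUN2 replicate 1.

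**Figure D4:**
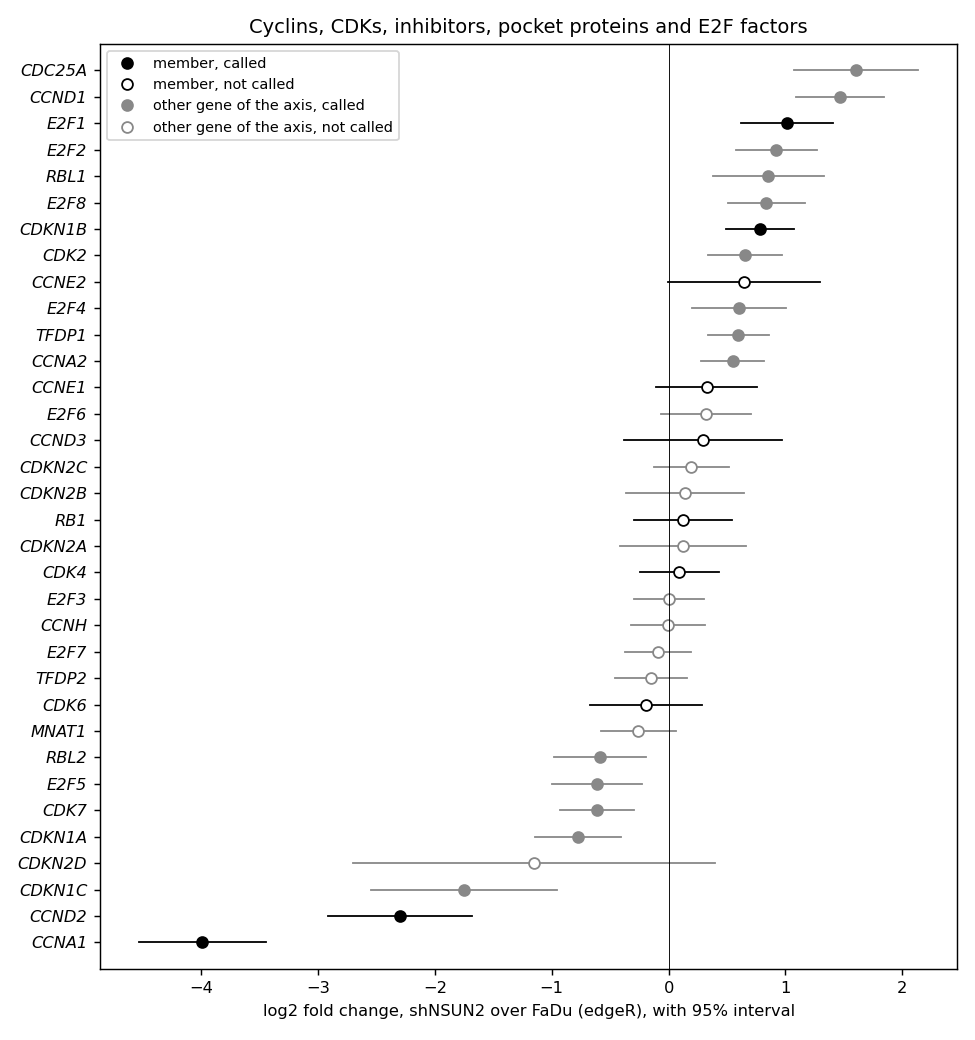
Log2 fold change of shNSUN2 over FaDu (horizontal axis) with its 95% interval from edgeR for the 10 genes (members, black) and 24 other genes of the axis (grey), filled where the adjusted p was under 0.05. CCNA1 at -3.99 and CCND2 at -2.30 are the lowest and CDC25A at 1.61 and CCND1 at 1.47 the highest.

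Genes that E2F factors are known to drive were higher in most cases. Of 34 such genes, 27 were called higher, against 8.54% of all tested genes, and none lower (0 lower in edgeR, DESeq2 and every other setting). The median log2 fold change was 0.92 over the 34 genes, against -0.01 over all tested genes. Many of the 34 belong to the G1/S genes already known to be higher in these libraries, so their direction is not independent evidence. ORC1, a subunit of the origin recognition complex, had 105, 96.6 and 116 CPM in shNSUN2 and 46.0, 40.4 and 40.7 CPM in FaDu (log2 fold change 1.32, SE 0.13, edgeR adjusted p = 0.000923). Among the others, the clamp PCNA, the helicase subunits MCM4 and MCM6 and the ribonucleotide reductase subunit RRM2 had the smallest adjusted p, at log2 fold changes of 1.13, 1.15, 0.89 and 1.33. Those that did not pass included CDK1, EZH2, MSH6, POLA1, TK1 and UNG, each with a positive log2 fold change. Leaving out single libraries gave 21 to 30 called genes.

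Of 8 genes of the MuvB complex and its partners, which drive the later cell cycle genes, 3 were called higher and none lower (median 0.44). The share called higher over all tested genes was 8.54%. MYBL2, the gene of B-MYB and an E2F target, had 311, 293 and 449 CPM in shNSUN2 and 164, 131 and 119 CPM in FaDu (log2 fold change 1.35, SE 0.20, edgeR adjusted p = 0.00432). LIN9 and LIN52, subunits of the MuvB core, were at 0.59 and 0.50 (edgeR adjusted p = 0.0268 and 0.0262), calls lost without FaDu replicate 1, 2 or 3 or shNSUN2 replicate 1 (adjusted p = 0.0654 to 0.121). With any 1 of those 4 libraries left out, 1 gene of the list was called. LIN52 was also lost without shNSUN2 replicate 2 (0.0574). Of 14 parts and regulators of the ubiquitin ligases that act on these cyclins and p27, none was called by edgeR or DESeq2, and the median was 0.31. In edgeR 6 of the 14 had an unadjusted p under 0.05, as did 6434 of all 19081 tested genes. With GC content and length smoothed out 2 of the 14 were called higher, and 1 was without shNSUN2 replicate 2 or replicate 3. SKP2, the F-box protein that marks p27 for breakdown, had 37.1, 32.1 and 37.0 CPM in shNSUN2 and 31.0, 34.3 and 29.6 CPM in FaDu.

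**Figure D5:**
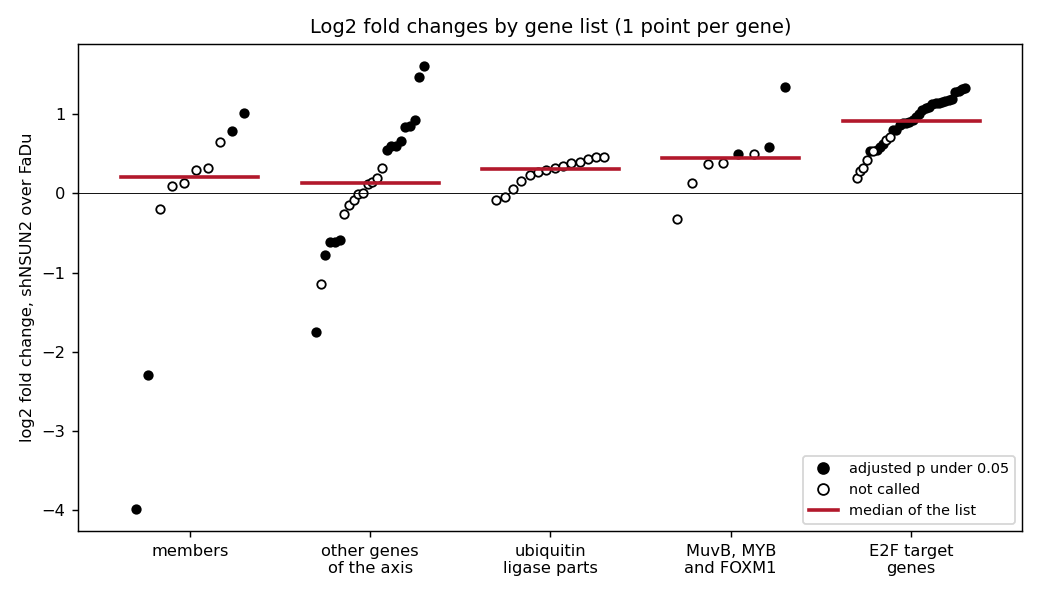
Log2 fold change of shNSUN2 over FaDu (vertical axis) for each gene of 5 lists (horizontal axis), filled where the edgeR adjusted p was under 0.05, with the median of each list in red. The medians are 0.21 for the 10 genes (members), 0.13 for the other axis genes, 0.31 for the ubiquitin ligase parts and regulators, 0.44 for MuvB and its partners and 0.92 for the E2F target genes.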

How the data were processed

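The deposited table holds estimated counts per gene, which the authors made from 6 RNA-seq libraries. They are whole numbers, but a count of 4 is 3.25 to 3.81 times as frequent as 3 and 5 are on average, so they are not plain read counts. Per the submitters' processing notes, the tools were Bowtie 0.12.2, StringTie 1.3.0 and HISAT2 2.0, beside the mouse build mm8. What each did, whether strand was used and which human build served is not given in the sources used here. Counts were tested with edgeR 4.0.16 (R 4.3.3): TMM scaling, filterByExpr with a count minimum of 10 and total of 15, and the quasi-likelihood test with Benjamini-Hochberg adjustment over 19081 of 58825 genes, without a replicate block. Intervals are from that fit. CPM uses TMM-scaled totals, and exon lengths, positions and GC content come from GENCODE 29. Upstream windows come from RefSeq. Log2 ratios were compared with an exact permutation test. The fits were tested on simulated data. There, 0.0459% of unchanged genes were called. Of genes with a simulated log2 change of 0.5, 1, 2 and 3, the test called 0.667%, 30.7%, 73.3% and 88.7% (150 genes each). A gene that was not called may therefore still have changed.

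The 10 genes, the gene lists and the rules were chosen with earlier results of these data known. Genes outside the 10 were named as direct partners, or as up to 5 called genes per list, by smallest adjusted p, or as the 3 profiles nearest to CCNA1. CDKN1C, RBL1, RBL2, E2F3, E2F4, E2F5, CDK7, the INK4 genes and SKP2 were added after their values were seen, to complete families. Alternatives were RLE and upper quartile scaling, DESeq2 1.42.0, no filter, the replicate number as a block, a correction for GC content and length with and without that block, and leaving out each library.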

Additional observations from a re-analysis of the deposited data

How the results depend on the processing

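Among the 10 genes, 2 were called higher and 2 lower in the test as reported and in all 13 alternatives. Of the genes not called, leaving out single libraries gave log2 fold changes of -0.111 to 0.478 for CCND3, -0.355 to 0.027 for CDK6 and -0.048 to 0.293 for RB1. The signs turned without shNSUN2 replicate 3 for CCND3 and CDK6, and without shNSUN2 replicate 2 for RB1. The cause was not tested. With 1 CPM added, the log2 ratio of CCNA1 to CCNA2 differed by -3.97 in place of -4.58, since the shNSUN2 levels of CCNA1 are near 1 CPM. The number of called genes, 3532, was 1354 to 4271 when single libraries were left out. Upper quartile scaling moved the median of all genes by -0.08, and 36.2% of the called genes were then higher, against 46.1%. Same-numbered libraries had correlations of their deviations from the group mean of -0.073, 0.058 and -0.033. The highest of any pair was 0.13, for shNSUN2 replicate 3 with FaDu replicate 1. These deviations also hold the GC trend of single libraries (0.472 for shNSUN2 replicate 3). They therefore cannot decide whether the replicate numbers pair the libraries. The design text of the series speaks of pairs, but the labels do not say what a shared number means. The libraries were treated as unpaired, with the pairing by number as an alternative. With the replicate block 2370 genes were called, 969 of them higher and 1401 lower. Among the 24 other axis genes 6 were then higher and 3 lower, and of the MuvB list 1 was higher, so the calls of CCNA2, RBL1, RBL2, E2F4, E2F5, LIN9 and LIN52 were lost. With 3 libraries a group, the smallest exact p is 0.1, and intervals cover only the spread between these libraries.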

Other observations

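CDKN2D, the gene of an INK4 inhibitor, had 3.10, 2.47 and 3.15 CPM in shNSUN2 and 2.83, 13.9 and 2.71 CPM in FaDu, with replicate 2 of FaDu far above the other libraries.

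KLK3, KLK2 and IGKC, markers of other tissues, were present in shNSUN2 and at or near 0 in FaDu. KLK3, the gene of prostate-specific antigen, had 14.03, 16.8 and 10.2 CPM in shNSUN2 and 0, 0 and 0.16 CPM in FaDu. KLK2, its neighbour in the kallikrein family, had 11.3, 10.4 and 8.03 CPM in shNSUN2 and 0.065, 0.073 and 0.053 CPM in FaDu. IGKC, an immunoglobulin light chain gene, had 2.87, 0.505 and 0.844 CPM in shNSUN2 and was at 0 in all 3 FaDu libraries. MYH11, a smooth muscle myosin, was detected in both groups and had 8.29, 1.53 and 1.39 CPM in shNSUN2 and 0.948, 0.972 and 1.06 CPM in FaDu, with replicate 1 of shNSUN2 the only high library. ACTA2, a smooth muscle actin of the same list, was called lower (3.90, 2.56 and 1.88 CPM in shNSUN2, 7.75, 8.31 and 10.7 CPM in FaDu). DES and CNN1 of that list and MSMB of the prostate list were also highest in shNSUN2 replicate 1 (2.75, 0.769 and 3.92 CPM). CNN1 was too low to be tested. KLK3 and COL1A1 were highest in shNSUN2 replicate 2. The part of these transcripts in the results on the 10 genes was not tested.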
